A study of Mus musculus with 24 samples.

Results

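Retinoid metabolism and response genes were followed in the adrenal glands of mice with and without the potassium channel gene Kcnk3. The members were 9 genes, Aldh1a1, Aldh1a2, Aldh1a3, Aldh1a7, Rarres1, Crabp1, Crabp2, Stra6 and Rarb, taken by gene name from the array files. They are 9 of the 36413 gene names on the array and were read by 10 of its 55681 distinct probes, with a pair of probes for Rarb. The set was selected on measured values: it was built around the higher signals of Aldh1a1 and Rarres1 in testosterone-treated than in sham females, already known from these arrays, and filled with genes of the same pathway by name. The values of these 2 genes in females are therefore given as a description with no test, and their tests are confined to comparisons among males.

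Total RNA from adrenal gland was hybridised to 24 one-colour arrays, 3 in each of 8 groups of C57BL/6 mice. The female groups were Kcnk3 null females given testosterone, Kcnk3 null females after a sham procedure, WT females given testosterone and WT females after a sham procedure. The male groups were castrated Kcnk3 null males, sham Kcnk3 null males, castrated WT males and sham WT males. The labels give no age, dose, time after treatment or origin of the null allele, and do not say whether a gland or a pool was hybridised, so p-values measure the spread between these samples only. Levels are log2 signals relative to the 75th percentile of the same array, so that 0 is that percentile, and differences are on the same log2 scale with their standard error (SE). Because this is bulk tissue, fewer cells of a type and less RNA per cell cannot be told apart.

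Retinoic acid is made from vitamin A in a pair of oxidations. Retinol dehydrogenases and alcohol dehydrogenases give retinal, and the cytosolic aldehyde dehydrogenases Aldh1a1, Aldh1a2 and Aldh1a3 oxidise retinal to retinoic acid, which acts through the nuclear receptors Rara, Rarb and Rarg paired with retinoid X receptors. Stra6 is a membrane receptor for retinol-binding protein that takes up retinol, and Crabp1 and Crabp2 bind retinoic acid in the cytosol. Rarres1 was first described as a gene that responds to a synthetic retinoid in human skin. Aldh1a7 is a rodent neighbour and close relative of Aldh1a1 whose product is known for little activity on retinal. In the adrenal cortex, aldehyde dehydrogenases also handle aldehydes released in steroid synthesis, and the mouse X-zone is an inner cortical layer that androgen removes.

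The start sites of these genes are shown because the study manipulates androgen and because both retinoid and androgen receptors bind short DNA repeats. RefSeq sequences (build GRCm38.p6), 250 bases before and 50 after each annotated start, were matched for 7 of the 9 genes in 11 windows. Aldh1a1 and Aldh1a7 lie side by side on chromosome 19, and the second annotated Aldh1a1 window and the Aldh1a7 window are printed to show how alike they are. Capitals mark their longest shared run of 65 bases, which began at position -94 from the start site in both. Over the last 150 bases of the windows, set side by side without gaps, 142 were identical (94.7%), while the first Aldh1a1 window had 44 of 150 identical bases with that of Aldh1a7. The windows are chr19:20601718-20602017 on the plus strand for Aldh1a1 and chr19:20727507-20727806 on the minus strand for Aldh1a7.
Aldh1a1: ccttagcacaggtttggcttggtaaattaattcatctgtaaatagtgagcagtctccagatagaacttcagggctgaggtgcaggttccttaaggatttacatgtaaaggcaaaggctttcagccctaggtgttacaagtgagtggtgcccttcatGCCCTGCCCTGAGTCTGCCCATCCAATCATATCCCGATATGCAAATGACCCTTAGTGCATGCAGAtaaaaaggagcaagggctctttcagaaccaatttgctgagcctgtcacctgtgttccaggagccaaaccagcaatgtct
Aldh1a7: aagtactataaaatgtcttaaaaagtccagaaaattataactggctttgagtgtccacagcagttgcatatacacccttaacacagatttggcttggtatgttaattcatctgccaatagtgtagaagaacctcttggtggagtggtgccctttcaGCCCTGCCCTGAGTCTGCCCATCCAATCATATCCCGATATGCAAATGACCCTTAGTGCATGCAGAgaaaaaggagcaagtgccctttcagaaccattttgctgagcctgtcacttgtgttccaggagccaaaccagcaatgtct

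The Rarb window, chr14:16575427-16575726 on the minus strand, is printed because Rarb is a textbook direct target of retinoic acid. Capitals mark the match to a direct repeat, GTTCA, then 6 bases of any kind, then GTTCA, whose first base lay at position -52. This repeat, searched on both strands, was found in 25 of 32851 windows (0.0761%) and in 1 of the 11 windows of the members.
Rarb: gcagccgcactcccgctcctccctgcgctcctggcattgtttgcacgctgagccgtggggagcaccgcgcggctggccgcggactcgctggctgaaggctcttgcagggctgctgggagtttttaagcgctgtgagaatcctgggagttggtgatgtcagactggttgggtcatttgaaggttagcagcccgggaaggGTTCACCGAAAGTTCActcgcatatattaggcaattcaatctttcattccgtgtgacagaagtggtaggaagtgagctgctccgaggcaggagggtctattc
The Rarres1 window, chr3:67515474-67515773 on the minus strand, is printed because this gene was the called member in the castration comparisons that follow. None of the searched motifs was in it, so it holds no capitals.
Rarres1: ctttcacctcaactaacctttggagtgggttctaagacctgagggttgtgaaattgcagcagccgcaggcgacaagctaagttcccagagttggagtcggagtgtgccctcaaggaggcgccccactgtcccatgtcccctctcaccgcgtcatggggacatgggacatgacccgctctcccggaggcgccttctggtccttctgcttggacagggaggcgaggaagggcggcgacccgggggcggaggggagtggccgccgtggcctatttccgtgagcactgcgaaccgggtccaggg
The full androgen response element, searched as AGAACA, then 3 bases of any kind, then TGTTCT, was in 3 of 32851 windows (0.00913%) and in 0 of the 11 windows of the members, and its single arm AGAACA was in 6233 windows (19%) and in 2 of the 11, both of Stra6. The other direct repeat, GGTCA, then 6 bases of any kind, then GGTCA, was in 33 windows (0.100%) and in 0 of the 11. The arm AGAACA is part of the full element, and a window without a match says only that these letters were not found in it.

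All 10 probes were well above background on all 24 arrays, and every one was tested among 36832 probes that passed this filter on at least 3 arrays. On the files' mm9 coordinates the 60-base probes lie at chr19:20717764-20717823 for Aldh1a1, chr19:20767553-20767612 for Aldh1a7, chr9:71143931-71143990 for Aldh1a2, chr7:73535785-73535844 for Aldh1a3 and chr3:67283078-67283137 for Rarres1. The others lie at chr9:54616192-54616251 for Crabp1, chr3:87757207-87757266 for Crabp2, chr9:58001701-58001760 for Stra6, and chr14:17263367-17263426 and chr14:17264648-17264707 for Rarb, called probe 1 and probe 2. Whether each probe lies in an exon or a UTR was not looked up, since no annotation of this build was used here.

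Several arrays stood apart. The Kcnk3 signal itself was lower in nulls, at log2 levels of 2.08 to 4.96 on the 12 null arrays and 5.00 to 6.46 on the 12 WT arrays, and whether its probe lies in the deleted part is not known here. Sham null male 2 (4.96) was nearly level with sham WT male 3 (5.00), and in sham males the Kcnk3 difference of -1.12 ± 0.32 did not pass (limma, adjusted p = 0.677), whereas it passed in castrated males (-2.48), females given testosterone (-3.25) and sham females (-2.27). The adrenal label was borne out by its markers, with 7 of 7 genes of the steroid-making cortex and 5 of 5 of chromaffin cells well above background on every array. Liver transcripts were high on 2 arrays, null females given testosterone replicate 1 (albumin log2 level 8.29) and sham WT males replicate 3 (7.38), against at most 1.25 on the other arrays. The summed linear level of all 6 liver markers was 7.52 to 1196 in null females given testosterone, against 5.99 to 12.5 in sham null females, and 7.42 to 15.7 in castrated WT males, against 5.12 to 754 in sham WT males. On 9 arrays the signal of genes of the opposite sex reached 17.4% to 58.0% of its level in a group of that sex, against at most 6.08% on the others. These samples may be mixed or mislabelled, which bears on every group mean that holds them. These 9 arrays were sham null males replicates 1 and 2, castrated null males replicates 1 and 2, sham WT females replicates 2 and 3 and all 3 WT females given testosterone. RNA integrity numbers ran between 3 and 9, and the 2 arrays at 3 were sham WT females replicate 3 and WT females given testosterone replicate 3, which also shared a slide of their own.

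Rarres1 was lower after castration in both male genotypes. In castrated null males its log2 levels were -4.08, -3.29 and -4.77, against -1.77, -1.95 and -1.64 in sham null males. The groups did not overlap, and the castrated null males fell by 2.26 ± 0.40 (SE, n = 3 each), a 4.78-fold lower signal (limma, adjusted p = 0.00702). In castrated WT males the levels were -4.07, -3.02 and -3.50, against -1.93, -2.02 and -0.78 in sham WT males. Again the groups did not overlap, and the difference was -1.95 ± 0.40, a 3.87-fold lower signal (limma, adjusted p = 0.0260). The highest sham WT value was that of the array with liver transcripts. Without the 2 arrays with liver transcripts the WT difference was -1.55 and did not pass the threshold (limma, adjusted p = 0.132). Neither of these arrays was a null male, so the null difference of -2.26 could not change (limma, adjusted p = 0.00384). None of the 9 arrays with opposite sex-linked signal was a WT male, so without them the WT difference of -1.95 could not change. Its adjusted p was then 0.132 (limma), and the difference was -3.13 in null males. The null value then came from 1 array in each group, assumed to vary like the other groups. With normexp background correction and quantile normalization the difference was smaller, -1.20 in null males and -1.25 in WT males, and passed in both (adjusted p = 0.0142 and 0.0116). With 1 array left out at a time, the difference was -2.64 to -1.90 in null males, missing the threshold without castrated null male 3 (adjusted p = 0.0541), and -2.21 to -1.55 in WT males, missing it without sham 1 or 3 or castrated 1 or 3 (adjusted p up to 0.203).

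Slide was a batch that held several groups. Within slides 1, 2 and 3 the castrated minus sham difference of Rarres1 was -2.31, -1.33 and -3.13 in null males and -2.13, -1.0 and -2.72 in WT males, so it had 1 direction in all 6 pairs. With slide as a block the adjusted p was 0.0124 in null males and 0.0407 in WT males. The 2 X-zone markers, Akr1c18 and Pik3c2g, had a summed linear level of 161 to 248 in castrated null males, against 0.0831 to 129 in sham null males, and neither passed (limma, adjusted p = 0.373 and 0.250). Within sham null males the sum was 91.6 and 129 on replicates 1 and 2, which also carried opposite sex-linked signal, and 0.0831 on replicate 3. In castrated WT males it was 228 to 331, against 0.0695 to 0.109 in sham WT males, and both rose. Of the 4 markers of the aldosterone-making zona glomerulosa, castrated null males had higher Cyp11b2 (2.16 ± 0.49, adjusted p = 0.0362) and lower Agtr1b (-2.48 ± 0.35, adjusted p = 0.00102) and Vsnl1 (-3.52 ± 0.52, adjusted p = 0.00176). The summed linear level of all 4 was 24.1 to 34.1 in castrated null males, against 23.9 to 24.4 in sham null males. Of the 7 capsule and stroma markers, Gli1 rose in castrated null males (1.86 ± 0.36, adjusted p = 0.0149). In WT males 0 of the 4 and 0 of the 7 were called by limma after castration. At an unadjusted limma p under 0.05 there were 1 of 4 (Dab2) and 1 of 7 (Dcn). The share of all probes under that unadjusted threshold was not counted, so these are a description only. Of the 5 mesothelium markers, 1 fell in castrated WT males and 0 were called in castrated null males. The median difference over these 5 was -0.64 in WT males and -0.29 in null males. Their part in the result was not tested. The castration response of Rarres1 differed between null and WT males by -0.31 ± 0.57 (95% interval -1.49 to 0.88, adjusted p = 1.00), so a genotype difference was not shown.

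In females, Rarres1 was higher with testosterone in both genotypes, which is how the gene was chosen. Its log2 levels were -0.32, -0.92 and -0.81 in null females given testosterone, against -2.39, -2.81 and -3.83 in sham null females, a difference of 2.33 ± 0.40. In WT females given testosterone they were -1.84, -2.40 and -1.93, against -3.36, -3.68 and -3.64 in sham WT females, a difference of 1.5 ± 0.40. The WT difference was 0.84 with normexp background correction and quantile normalization and 0.93 with the deposited table. The groups did not overlap in either genotype. The null minus WT difference of these responses was 0.82 ± 0.57 (SE), a description only. Without the array with liver transcripts, the null difference was 2.14. The summed X-zone level was 0.0901 to 0.119 in null females given testosterone, against 7.26 to 104 in sham null females, and 57.1 to 109 in WT females given testosterone, against 134 to 372 in sham WT females. The part of these cells in the Rarres1 values was not tested.

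Ordered by mean, the Rarres1 levels ran over -0.69 ± 0.32 in null females given testosterone, -1.58 ± 0.69 in sham WT males, -1.79 ± 0.16 in sham null males and -2.06 ± 0.30 in WT females given testosterone (SD, n = 3 each). Sham null females followed at -3.01 ± 0.74, then castrated WT males at -3.53 ± 0.52, sham WT females at -3.56 ± 0.18 and castrated null males at -4.04 ± 0.74. The ranges of each pair of neighbours in this order overlapped. The groups that were castrated or female and sham thus took the lower end, as the plot of Rarres1, Aldh1a1 and Aldh1a7 by array shows.

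**Figure D1:**
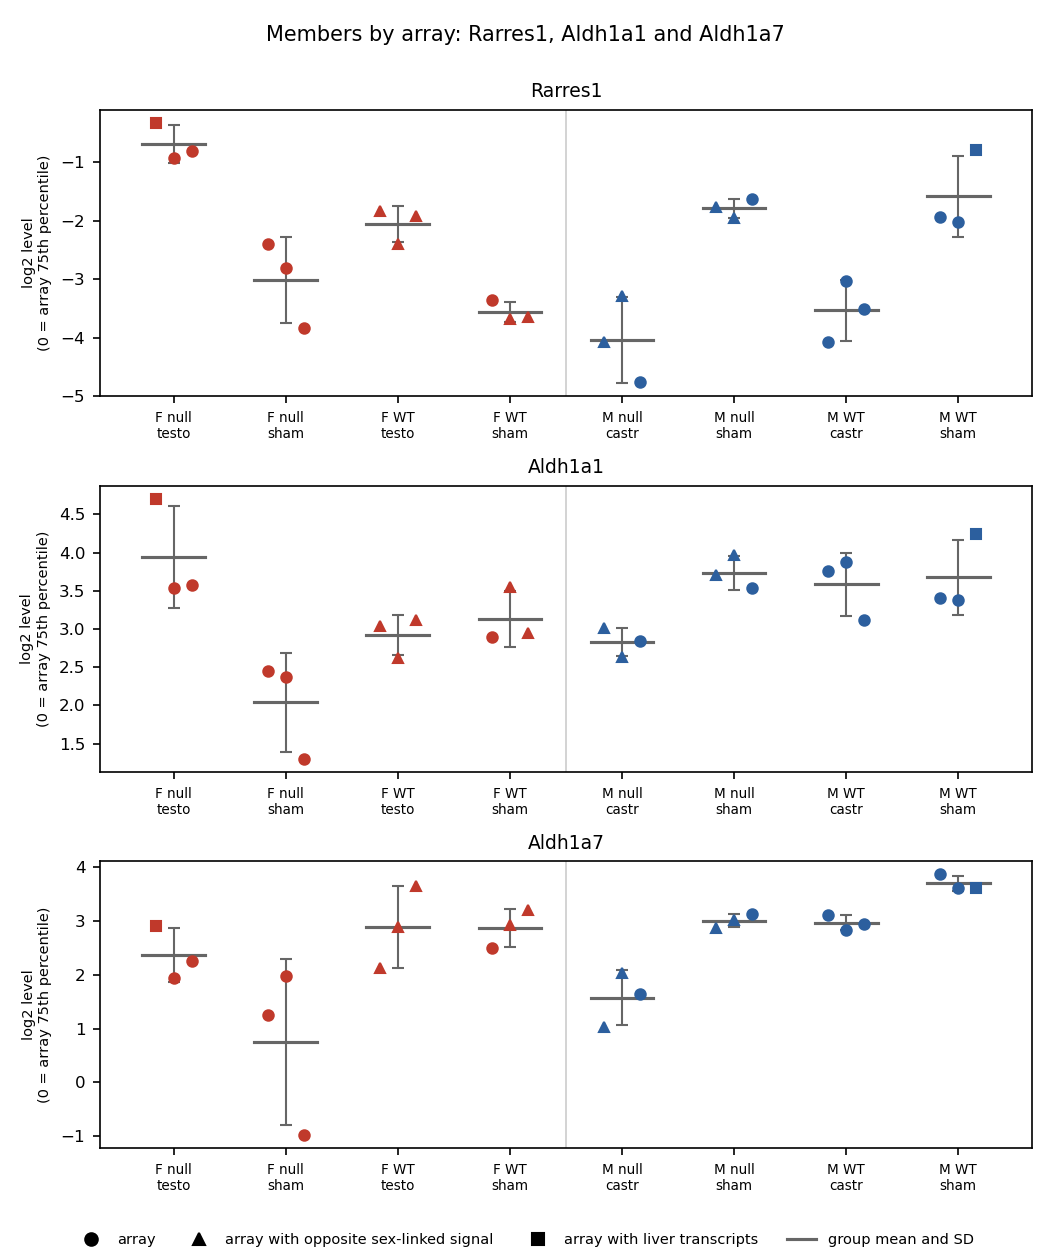
Log2 levels (0 is the 75th percentile of the array) of Rarres1, Aldh1a1 and Aldh1a7 on each of 24 arrays, by group, with the group mean and SD (n = 3). Castrated males of both genotypes lie below their sham groups for Rarres1, and sham null females have the lowest mean for Aldh1a1 (2.04) and Aldh1a7 (0.75).

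Aldh1a1, the enzyme that makes retinoic acid from retinal in many adult tissues, differed in null females but not visibly in WT females after testosterone. Its log2 levels were 4.71, 3.54 and 3.58 in null females given testosterone, against 2.45, 2.37 and 1.30 in sham null females, a difference of 1.90 ± 0.35 or 3.73-fold. In WT females given testosterone they were 3.03, 2.62 and 3.11, against 2.90, 3.55 and 2.94 in sham WT females, a difference of -0.21 ± 0.35. The null groups did not overlap, whereas the WT groups did. The responses differed by 2.11 ± 0.49 (SE), a description only, because the gene was chosen for this rise. The highest of all 24 values was that of the null female array with liver transcripts, and without it the null difference was 1.52. The lowest of all 24 values, 1.30, was that of sham null female replicate 3, which also widens the null difference. Within slides 1, 2 and 3 the null difference was 2.26, 1.16 and 2.28. The WT values come from arrays that stood apart, since all 3 WT females given testosterone and 2 of the 3 sham WT females carried opposite sex-linked signal and 1 array in each of these groups had an RNA integrity number of 3. The summed X-zone levels given above were 0.0901 to 0.119 in null females given testosterone and 57.1 to 109 in WT females given testosterone. The part of these differences in the Aldh1a1 values was not tested. The summed linear level of 6 adipocyte markers was 347 on sham null female replicate 3, against 654 and 808 on replicates 1 and 2. In null females given testosterone it was 686 to 727. The part of fat tissue in the Aldh1a1 values was not tested either.

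Among males, Aldh1a1 passed no test. Castrated null males had log2 levels of 3.01, 2.63 and 2.84, against 3.70, 3.97 and 3.53 in sham null males, with no overlap. The difference was -0.91 ± 0.35, with an unadjusted p of 0.0174 and a limma adjusted p of 0.340. Castrated WT males had 3.76, 3.88 and 3.12, against 3.41, 3.38 and 4.24 in sham WT males, overlapping groups with a difference of -0.09 ± 0.35 (adjusted p = 1.00). The castration responses of the genotypes differed by -0.82 ± 0.49 (95% interval -1.85 to 0.21, adjusted p = 1.00). In the order of mean levels, only the step between castrated null males (2.83 ± 0.19) and sham null females (2.04 ± 0.64), the lowest group, separated neighbours whose ranges did not overlap.

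Aldh1a7 had values that moved in the same directions as those of Aldh1a1 in null mice, but none passed the threshold. The 2 genes are close relatives, and whether RNA of one reaches the probe of the other was not tested. In null females given testosterone its log2 levels were 2.92, 1.94 and 2.25, against 1.26, 1.98 and -0.98 in sham null females, overlapping groups with a difference of 1.62 ± 0.52 (limma, adjusted p = 0.432). Castrated null males had 1.02, 2.04 and 1.65, against 2.88, 3.02 and 3.12 in sham null males, with no overlap and a difference of -1.44 ± 0.52 (adjusted p = 0.301). In WT mice the differences were 0.01 ± 0.52 with testosterone and -0.73 ± 0.52 with castration.

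The sham null females stood lowest for Aldh1a7, with a mean of 0.75 ± 1.54 (SD, n = 3) set largely by replicate 3. Against sham WT females, at 2.51, 2.92 and 3.21, they differed by -2.12 ± 0.52 (limma, adjusted p = 0.0825). Against sham null males the difference was -2.25 ± 0.52 (adjusted p = 0.0539), which passed the threshold in 6 of 12 other settings. Without sham null females replicate 3 these differences were -1.26 and -1.39 and neither passed (adjusted p = 0.262 and 0.172), and without replicate 2 both passed, at -2.73 and -2.86. Neither group overlapped the sham null females in the full data. The comparisons share the sham null female arrays and are not independent of each other. The summed linear level of 6 adipocyte markers was 347 on sham null female replicate 3, against 654 and 808 on replicates 1 and 2. It was 722 to 824 in sham null males and 778 to 1210 in sham WT females. The part of fat tissue in the Aldh1a7 values was not tested.

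The other 2 enzymes that make retinoic acid showed no called difference. Aldh1a2, the main such enzyme of the embryo, had levels between 2.31 and 3.55 over the 24 arrays. Its largest tested difference was castrated null against castrated WT males, at 3.41, 3.40 and 2.72 against 2.69, 2.67 and 2.52, or 0.55 ± 0.27 (limma, adjusted p = 0.730). The array numbered 3, on slides 3 or 4, was the lowest of its group for Aldh1a2 in 8 of 8 groups. Aldh1a3 had levels between -1.0 and 0.74, and its mean was between -0.16 ± 0.73 in sham WT females and 0.39 ± 0.25 in castrated WT males (SD, n = 3 each), with overlap between all neighbours in the order of levels. Over the 12 comparisons the differences were -0.44 to 0.55 for Aldh1a2 and -0.48 to 0.44 for Aldh1a3. The lowest value was in both cases that of the testosterone response in null minus WT females.

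Of the binding proteins, Crabp2, which carries retinoic acid towards its nuclear receptors, was called with slide as a block and in no other of the 12 settings. A block for replicate number, which is the slide on every male array, did not call it. In castrated null males its log2 levels were -1.07, -1.16 and -0.55, against -0.32, -0.56 and -0.02 in sham null males. The groups touched only through the array numbered 3, which was the highest of its group in 8 of 8 groups. The difference was -0.63 ± 0.34 without a block (limma, adjusted p = 0.601) and -0.63 ± 0.14 with slide as a block (adjusted p = 0.0364), and within slides 1, 2 and 3 it was -0.74, -0.60 and -0.53. Crabp1, which also binds retinoic acid, was at -1.41, -1.62 and -1.61 in sham null females, against -0.12, -0.70 and -0.81 in sham null males. Those groups did not overlap, but the difference of -1.0 ± 0.38 did not pass (adjusted p = 0.323). After castration Crabp1 differed by -0.57 ± 0.38 in null males, with no overlap (adjusted p = 0.719), and by 0.11 ± 0.38 in WT males. Over the 12 comparisons the differences were -1.0 to 0.57 for Crabp1 and -0.63 to 0.06 for Crabp2.

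Stra6, the uptake receptor, had higher values in null than WT females under both treatments. Its levels were -2.28, -2.26 and -2.50 in sham null females, against -2.97, -2.84 and -2.78 in sham WT females, a difference of 0.51 ± 0.20 (limma, adjusted p = 0.350). In null females given testosterone they were -2.48, -2.52 and -2.63, against -2.89, -2.91 and -3.37 in WT females given testosterone, a difference of 0.51 ± 0.20 (adjusted p = 0.416). Neither pair of groups overlapped, and neither passed the threshold. After castration in null males Stra6 was at -1.84, -2.19 and -2.65, against -2.91, -2.66 and -2.55 in sham null males, overlapping groups with a difference of 0.48 ± 0.20 (unadjusted p = 0.0259, adjusted p = 0.404). Over the 12 comparisons its differences were -0.19 to 0.51.

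Rarb, the retinoic acid receptor whose promoter repeat is printed above, gave parallel values on its 2 probes, with a Pearson correlation of 0.91 over the 24 arrays (description only). On probe 1 sham WT females had log2 levels of 0.10, 0.56 and -0.34, against 1.17, 0.74 and 1.65 in sham WT males. The groups did not overlap, and the difference was -1.08 ± 0.40 (limma, adjusted p = 0.219). On probe 2 it was -0.77 ± 0.44 (adjusted p = 0.517). After castration, WT males differed from sham WT males by -0.70 ± 0.40 on probe 1 and -0.72 ± 0.44 on probe 2, with no overlap on either and no call (adjusted p = 0.946 and 0.976). The castration difference in null males was 0.26 ± 0.40 on probe 1 and 0.16 ± 0.44 on probe 2, with overlapping groups. The castration responses of null minus WT males differed by 0.95 ± 0.57 on probe 1 and 0.88 ± 0.62 on probe 2 and did not pass (adjusted p = 1.00 on both). Over the 12 comparisons the differences were -1.08 to 0.95 on probe 1 and -0.77 to 0.88 on probe 2.

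**Figure D2:**
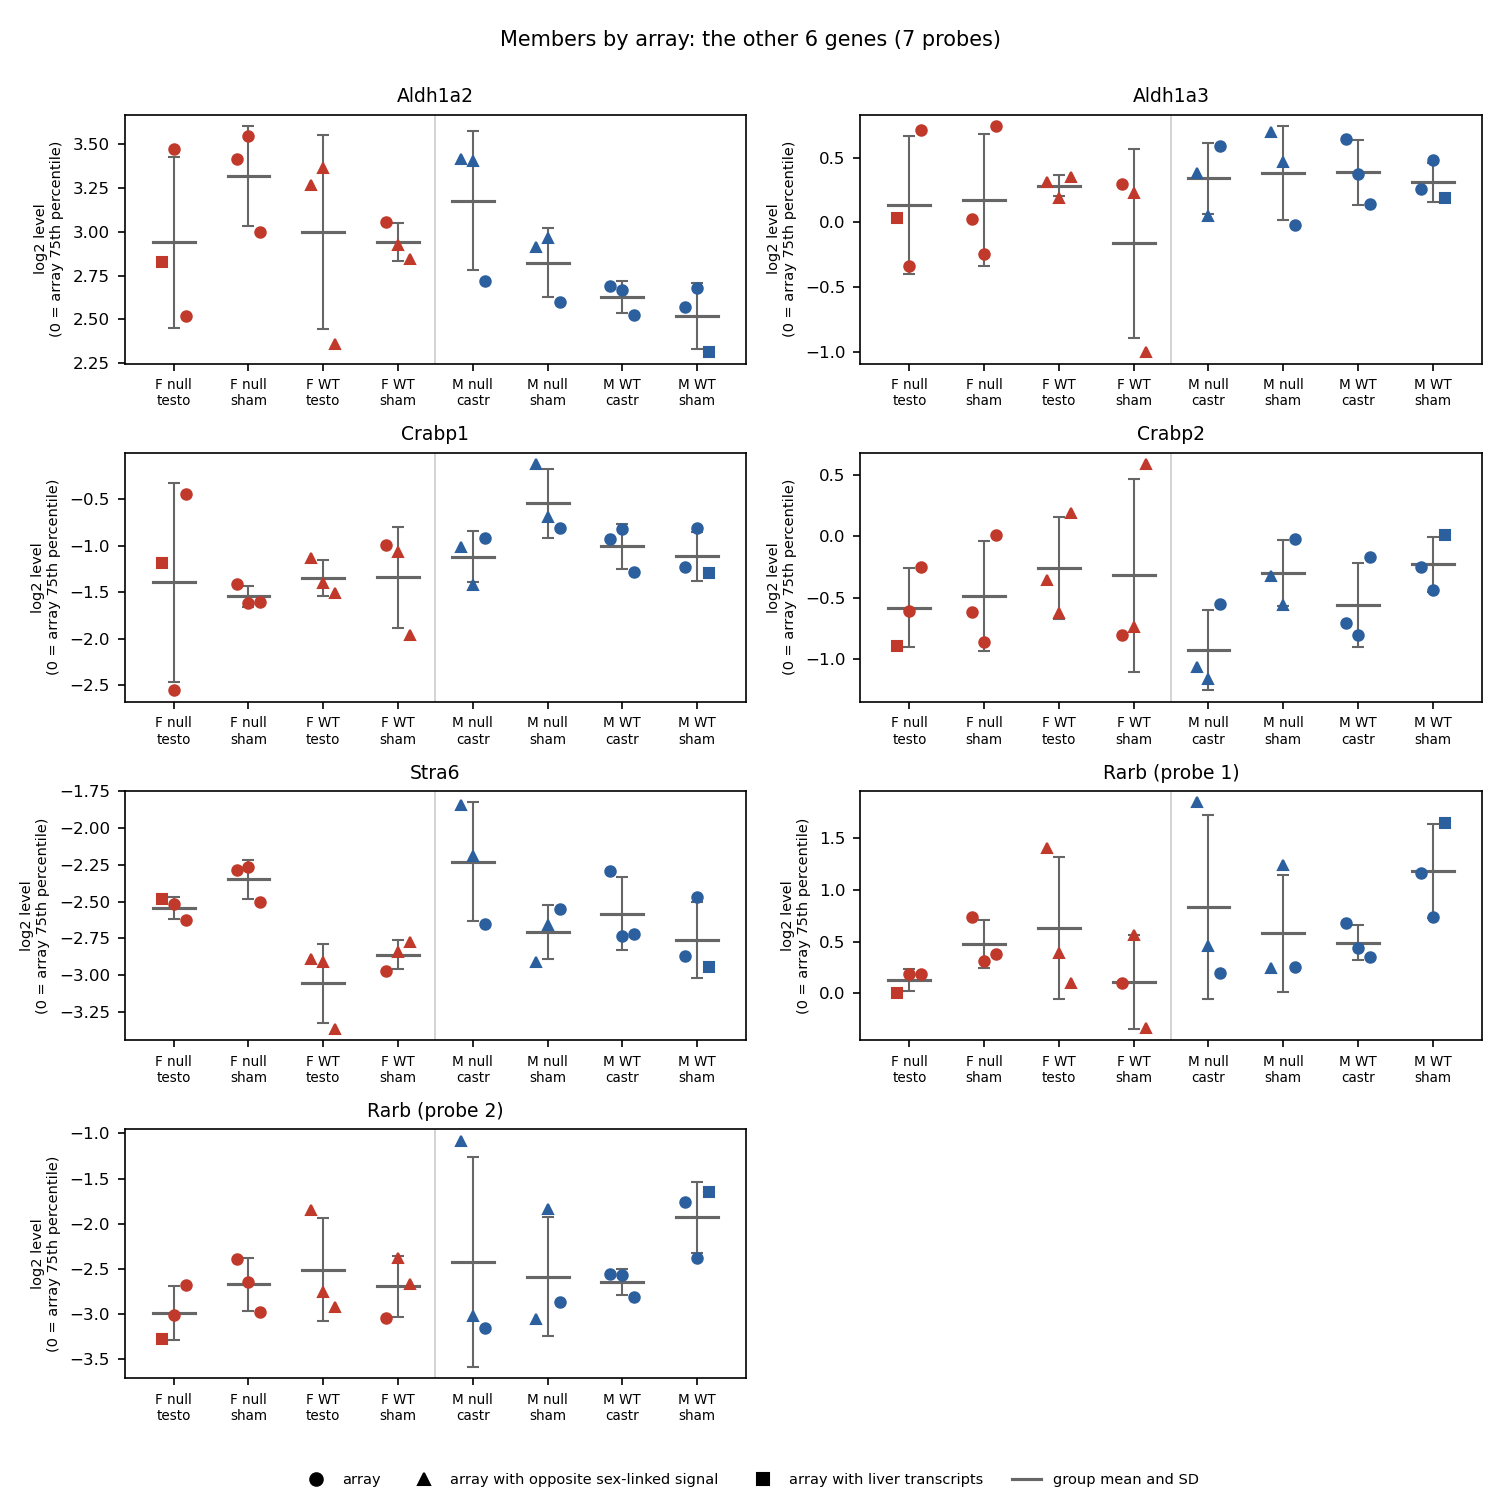
Log2 levels (0 is the 75th percentile of the array) of Aldh1a2, Aldh1a3, Crabp1, Crabp2, Stra6 and both Rarb probes on each of 24 arrays, by group, with the group mean and SD (n = 3). For Crabp2 the third array is the highest in 8 of 8 groups, and for Aldh1a2 it is the lowest in 8 of 8.

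Counted over all tested probes, the hormone comparisons called few members. Castration in null males called 1 of 10 member probes, Rarres1 falling, while 0.945% of all 36832 probes were called, 0.391% higher and 0.554% lower. Castration in WT males also called 1 of 10, while 0.586% of all probes were called, 0.497% higher and 0.0896% lower. The median difference over the 10 member probes was -0.31 in null males and -0.21 in WT males, and over all probes it was -0.00 and -0.05. Testosterone called 0 of the 8 member probes tested in null females, where 0.168% of all probes were called, 0.0217% higher and 0.147% lower. It called 0 of 8 in WT females, where 0.0896% were called, 0.0299% higher and 0.0597% lower. Its response differed between genotypes for 0 of 8 member probes (0.0869% of all probes, 0.0109% higher and 0.076% lower in nulls), and the castration response differed for 0 of 10 (0.076%, 0.0299% higher and 0.0462% lower). At an unadjusted limma p under 0.05, castration gave 4 of 10 member probes in null males (Rarres1, Aldh1a1, Aldh1a7 and Stra6) and 1 of 10 in WT males (Rarres1). At that threshold testosterone gave 1 of 8 in null females (Aldh1a7) and 0 of 8 in WT females. Its response by genotype gave 1 of 8 (Aldh1a7) and the castration response by genotype 0 of 10. These unadjusted counts are a description only, since the share of all probes under the same threshold was not counted.

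**Figure D3:**
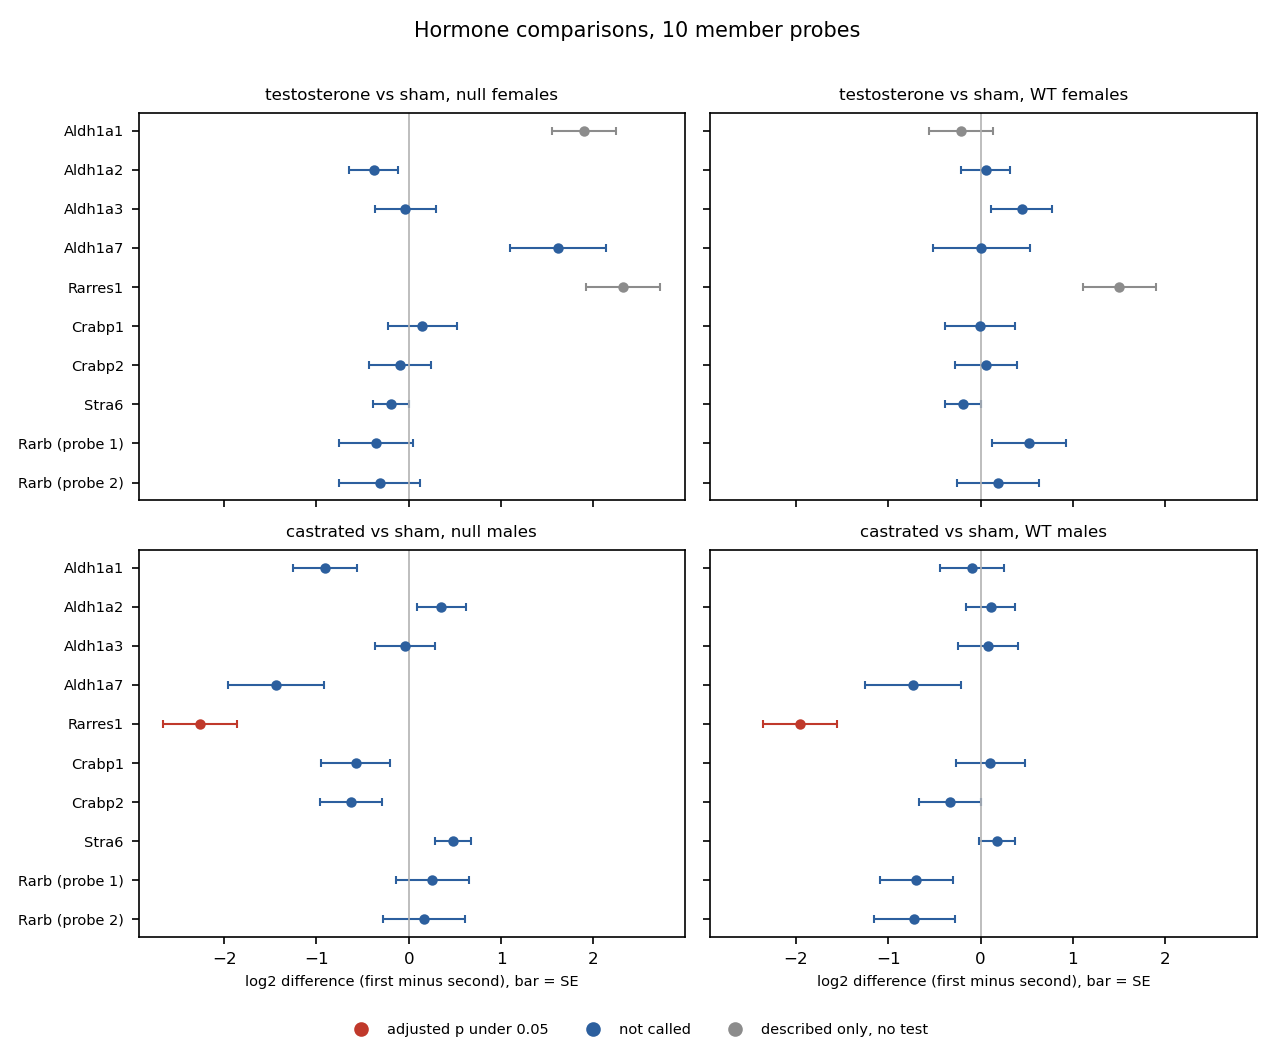
Log2 differences of the 10 member probes (first group named minus the second, with SE as bars) after testosterone in females and castration in males, by genotype. Red points passed an adjusted p of 0.05, blue points did not, and grey points are described with no test. Rarres1 is the called member, at -2.26 in null males and -1.95 in WT males.

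Genotype called no member. Null against WT gave 0 of 10 member probes called in castrated males (0.66% of all probes, 0.388% higher and 0.272% lower) and 0 of 10 in sham males (0.0815%, 0.076% higher and 0.00543% lower). It gave 0 of 8 tested in females given testosterone (0.0516%, 0.00272% higher and 0.0489% lower) and 0 of 8 in sham females (0.483%, 0.331% higher and 0.152% lower). At an unadjusted limma p under 0.05 there were 2 of 10 in castrated males (Aldh1a1 and Aldh1a7) and 0 of 10 in sham males. In females there were 1 of 8 with testosterone (Stra6) and 2 of 8 after sham (Aldh1a7 and Stra6). The share of all probes under this unadjusted threshold was not counted, so these counts are a description only. Rarres1 differed by -0.51 ± 0.40 (95% interval -1.35 to 0.33) between castrated null and castrated WT males and by -0.21 ± 0.40 (95% interval -1.05 to 0.63) between sham null and sham WT males. As a description, Aldh1a1 was -1.09 ± 0.35 in sham null against sham WT females and 1.02 ± 0.35 in null against WT females given testosterone, so the genotype difference had opposite signs under the 2 treatments. These values share their arrays with the testosterone differences above.

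Sex called no member either, with 0 of 8 tested probes called between sham null females and males (0.711% of all probes, 0.342% higher and 0.369% lower) and 0 of 8 between sham WT females and males (2.03%, 1.28% higher and 0.749% lower). At an unadjusted limma p under 0.05 there were 2 of 8 in null mice (Aldh1a7 and Crabp1) and 1 of 8 in WT mice (Rarb probe 1). For these counts too, the share of all probes under the unadjusted threshold was not counted. As a description, Rarres1 was lower in sham females than in sham males, with differences of -1.23 ± 0.40 in nulls and -1.98 ± 0.40 in WT mice. The sham WT male array with liver transcripts had a Rarres1 level of -0.78, against -1.93 and -2.02 on the others of its group, which widens the WT difference. The WT difference was -1.28 with normexp background correction and quantile normalization and -1.43 with the deposited table. For Aldh1a1 these differences were -1.70 ± 0.35 and -0.54 ± 0.35. Of the 5 mesothelium markers, 3 were called higher in sham WT females than in sham WT males, and 0 were called between sham null females and males. Their summed linear level was 7.62 to 9.49 in sham null females, against 2.97 to 5.16 in sham null males. In WT mice it was 6.5 to 8.38 in sham females, against 1.91 to 2.18 in sham males. Their part in the result was not tested.

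**Figure D4:**
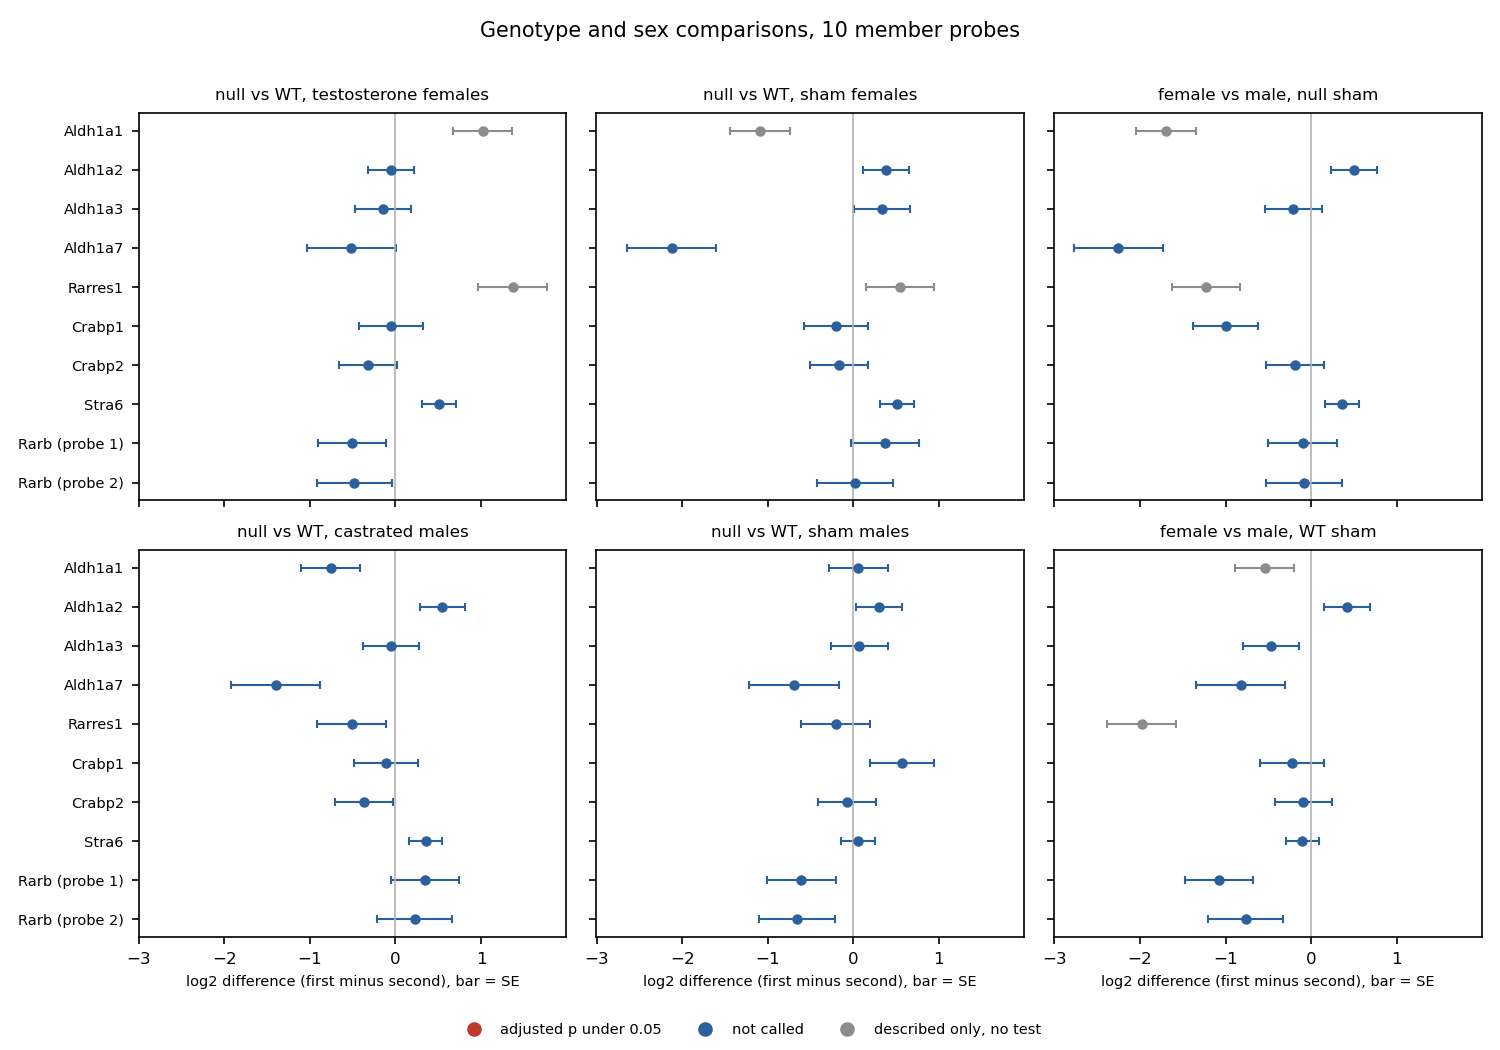
Log2 differences of the 10 member probes (first group named minus the second, with SE as bars) between genotypes and between sexes. No point passed an adjusted p of 0.05, and the largest tested difference is that of Aldh1a7 between sham null females and males (-2.25).

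The wider pathway was read from 50 other retinoid genes, of which 43 were measured, and from 14 other aldehyde dehydrogenases, all measured. Of the 43, 2 rose after castration in WT males, where 0.497% of all probes were called higher. Between sham WT females and sham WT males 3 were higher in females, where 1.28% of all probes were. In those comparisons 0 fell. In the other 10 comparisons 0 were called by limma, and 3 to 12 of the 43 had an unadjusted p under 0.05. The share of all probes under that unadjusted threshold was not counted, so the range of 3 to 12 is a description only. Adh1, an alcohol dehydrogenase that oxidises retinol, rose by 1.23 ± 0.21 in castrated against sham WT males (limma, adjusted p = 0.00783) and Adh7, another retinol-oxidising member of that family, by 2.68 ± 0.44 (adjusted p = 0.00490). In sham WT females against sham WT males, Adh1 was higher by 1.55 ± 0.21 (adjusted p = 0.000575), Adh7 by 2.21 ± 0.44 (adjusted p = 0.0115) and Rxra, a partner of retinoic acid receptors, by 0.93 ± 0.23 (adjusted p = 0.0372). The Rxra call was lost without any 1 of the 6 arrays compared (0.76 to 1.04), the Adh7 call between sexes without sham WT male 1 or sham WT female 1 (1.96 and 2.12), and the Adh1 call after castration without castrated WT male 1 or 2 (1.15 and 1.16). The median difference over the 43 was -0.20 after castration in WT males and -0.05 between WT sexes, against -0.05 and 0.01 over all probes.

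In castrated and sham null males Adh7 averaged 0.39 ± 0.58 and -0.90 ± 0.19, and Adh1 averaged 8.46 ± 0.16 and 7.95 ± 0.38 (SD, n = 3 each). Neither gene was called there. Adh7 levels averaged 0.95 ± 0.22 in castrated WT males and -1.73 ± 0.53 in sham WT males (SD, n = 3 each). Adh1 averaged 8.42 ± 0.27 in castrated WT males and 7.19 ± 0.07 in sham WT males. Of these 2 groups of WT males, the castrated one was thus higher for both genes and lower for Rarres1. Their X-zone sums were the 228 to 331 and 0.0695 to 0.109 given above, and their part in the Adh1 and Adh7 values was not tested.

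Among the 14 other aldehyde dehydrogenases, Aldh3b1, an enzyme that oxidises fatty aldehydes, was called in 5 comparisons. It rose by 0.99 ± 0.23 with castration in null males (limma, adjusted p = 0.0458) and by 2.01 ± 0.23 in WT males (adjusted p = 0.000238). With testosterone it fell by 1.27 ± 0.23 in null females (limma, adjusted p = 0.0299). In WT females given testosterone it averaged 3.89 ± 0.45, against 5.09 ± 0.24 in sham WT females (SD, n = 3 each). Those groups did not overlap, but Aldh3b1 was not called there. It was higher in sham females than in sham males, by 1.23 ± 0.23 in nulls (adjusted p = 0.0143) and 2.29 ± 0.23 in WT mice (adjusted p = 2.3e-05). In WT mice both calls held in all 12 settings and without each array. In null mice the calls after castration (0.79 to 1.12) and testosterone (-1.42 to -1.10) were lost without any 1 of the 6 arrays compared, and the call between sexes (1.03 to 1.37) without sham null male 1 or 3 or sham null female 3. The others that were called were Aldh1b1, a mitochondrial enzyme, which fell by 1.19 ± 0.27 in castrated null males (adjusted p = 0.0383), Aldh1l2, of mitochondrial folate metabolism, which rose by 1.40 ± 0.26 in castrated WT males (adjusted p = 0.0131), and Aldh2, the mitochondrial acetaldehyde enzyme, which was higher by 0.98 ± 0.18 in sham WT females than in sham WT males (adjusted p = 0.00644). The Aldh1b1 call was lost without any of the 6 arrays except castrated null male 2, and its value was -0.81 without castrated null male 3. The Aldh1l2 call was lost without sham WT male 1 or 2 or castrated WT male 1 or 3 (1.24 to 1.44), and its difference was 0.72 with normexp background correction and 0.82 with the deposited table. The Aldh2 call held without each array. These checks on the listed genes were added after seeing the data.

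**Figure D5:**
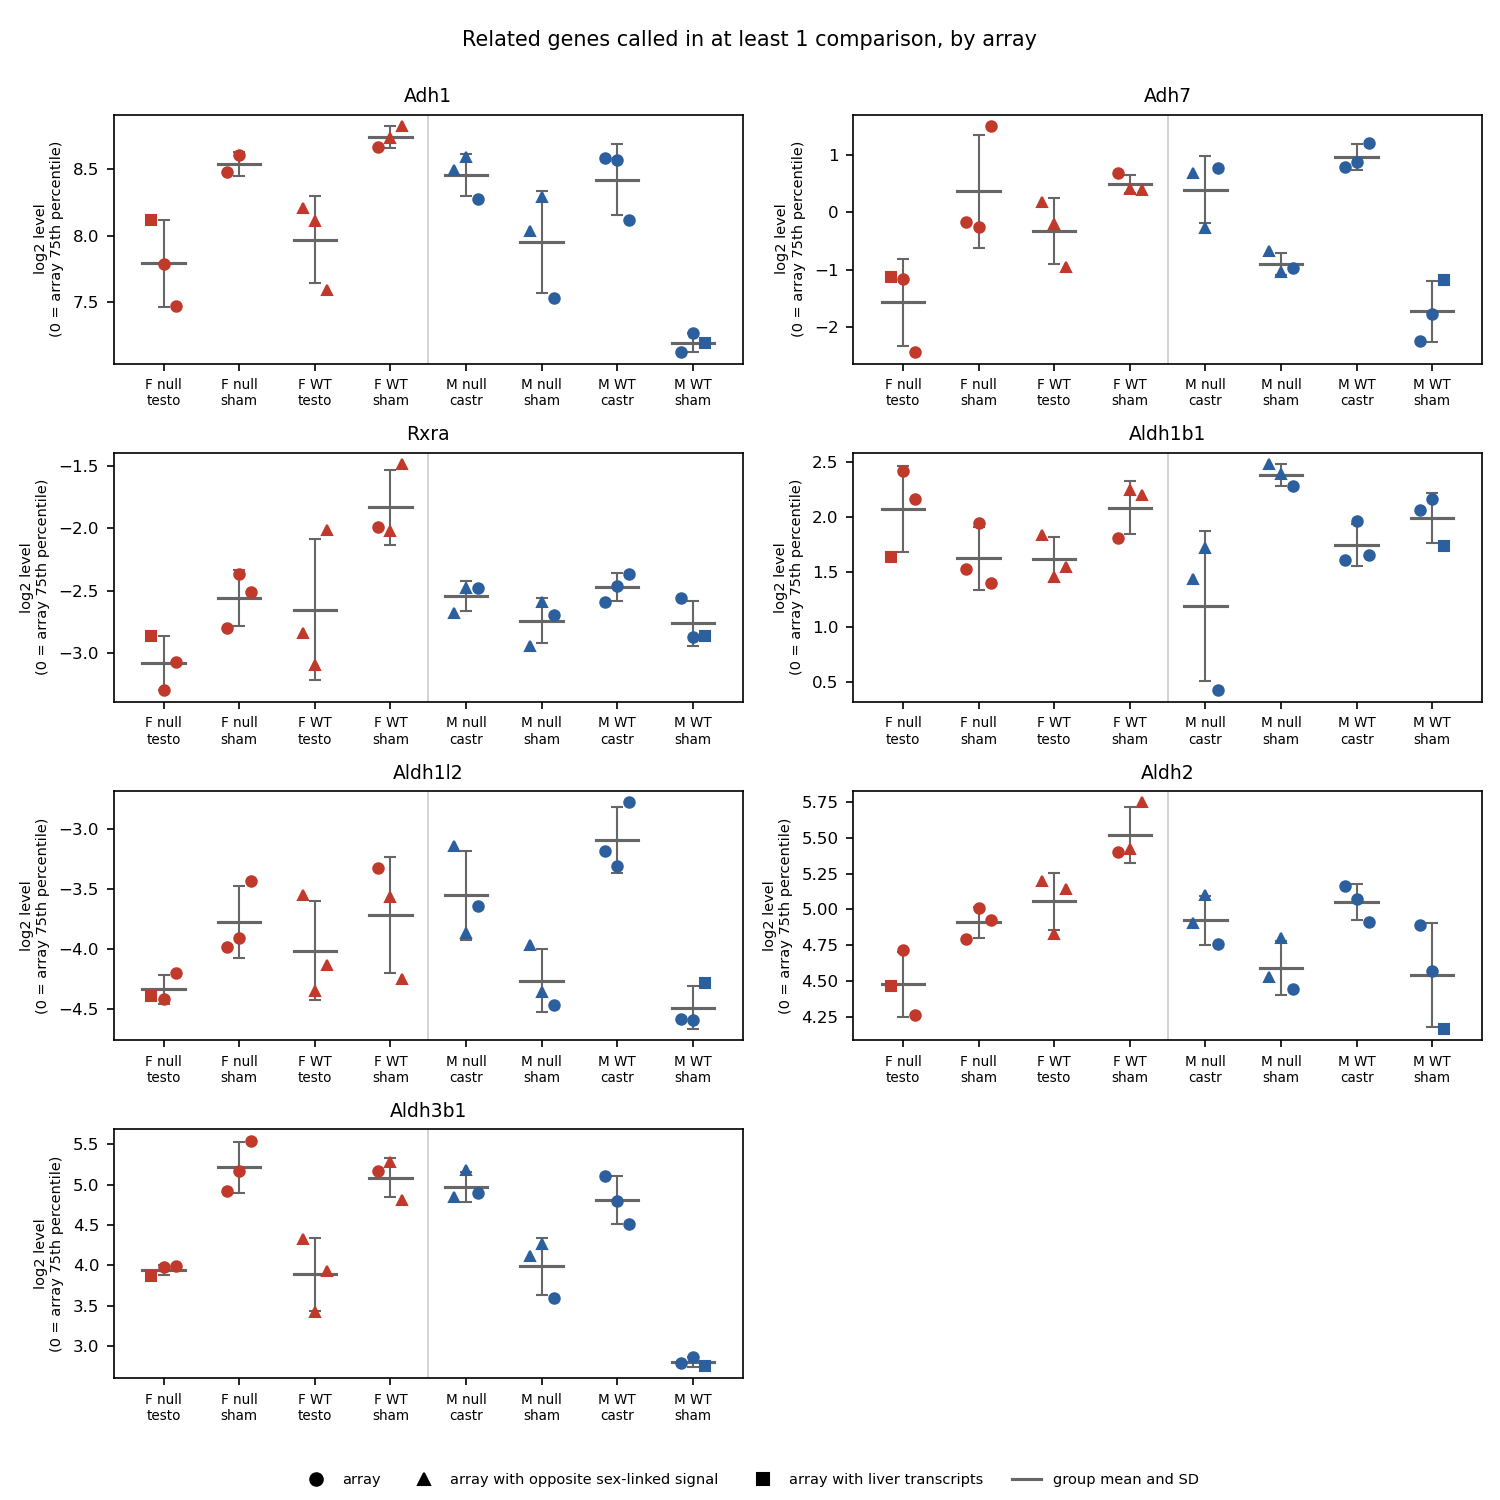
Log2 levels (0 is the 75th percentile of the array) of the 7 related genes that passed an adjusted p of 0.05 in at least 1 comparison, on each array, by group, with the group mean and SD (n = 3, or 2 for Adh1 in sham null females, where 1 spot was left out as an outlier). Aldh3b1 averages 4.81 in castrated and 2.80 in sham WT males.

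As a description of pattern, the 5 named genes whose levels followed Rarres1 most closely over the 24 arrays were Lsr, a lipoprotein receptor and tight-junction protein (Pearson r = 0.94), Acot12 (0.86), Nags (0.85), Cgn, a tight-junction protein (0.85), and Pon1 (0.84). Without the 2 arrays with liver transcripts these were 0.93, 0.85, 0.80, 0.83 and 0.79 over 22 arrays. Lsr averaged 0.38 ± 0.68 in castrated null males and 2.07 ± 0.11 in sham null males, and 0.84 ± 0.22 in castrated WT males and 2.16 ± 0.58 in sham WT males (SD, n = 3 each). For Aldh1a1 the 5 were Serpina6 (0.78), which encodes corticosteroid-binding globulin, Scp2 (0.75), Tm7sf2 (0.75), Ell3 (0.74) and Nxpe2 (0.74), and without those arrays 0.66, 0.65, 0.74, 0.69 and 0.61. Between the members, Aldh1a1 correlated with Aldh1a7 at 0.69 and with Rarres1 at 0.54, and over the 22 arrays at 0.72 with Aldh1a7 and 0.37 with Rarres1. The arrays in these correlations share groups, slides and signal scaling.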

How the data were processed

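The intensity values were deposited as Agilent Feature Extraction files, 1 per array; per the file headers, the processed signal of each Cy3 spot was already background-subtracted, and the authors' methods for it are not given further in the sources used here. Per the labels, 0.2 µg of total RNA was labelled for each array. The authors also deposited a table of log2 values for the same arrays, whose columns have medians of 6.33 to 6.34 and the same maximum; its normalization is not stated, its scale is log2 and its centring is unknown.

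Here, log2 of the processed signal minus each array's 75th percentile was used, outlier spots left out, spots of 1 probe averaged, and probes kept if well above background on at least 3 arrays (36832 of 55681). Between 57.0% and 64.7% of spots were well above background on an array, and 0 were saturated. limma 3.58.1 (R 4.3.3) fitted 8 group means with 1 spread per probe, and p-values were adjusted by Benjamini-Hochberg over all kept probes in each of 12 comparisons, with 0.05 as the threshold. On simulated data for castrated against sham WT males (36569 probes), 28 of 100 probes changed by 1 and 69 of 100 changed by 2 on the log2 scale were recovered. The simulation drew independent noise around 1 mean per probe, without slide, liver or sex-linked effects. These rates therefore need not hold for the real arrays. The number of arrays limits the precision.

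The members and the gene lists were chosen with earlier results of these data known. Every member was fitted in every comparison; the text gives the values the results turn on and the others as ranges. Of the listed pathway genes and aldehyde dehydrogenases, those called are named, up to 6 by smallest p, and for pattern likeness the 5 named genes with the highest Pearson correlation. Members are named as in the array files, and listed genes by RefSeq symbol, matched by accession for 26413 probes and by symbol for 3859, with the brightest kept probe of each gene. Alternatives were other background correction and normalization, the deposited table, other filters on dim probes, 1 probe per gene, a block for replicate number or for slide, a covariate for RNA integrity, and arrays left out.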

Additional observations from a re-analysis of the deposited data

How the results depend on the processing

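Each result was recomputed under up to 12 settings and without each of the 24 arrays, and no called difference reversed. With quantile normalization the castration difference of Rarres1 in WT males missed the threshold (-1.92, limma, adjusted p = 0.0670). It also missed it without the 2 arrays with liver transcripts (-1.55, adjusted p = 0.132) and without the 9 arrays with opposite sex-linked signal (-1.95, adjusted p = 0.132). In WT males 0 members were called in each of these. None of the 9 arrays was a WT male, so the -1.95 could not change, and only its spread and adjustment did. In null males the Rarres1 difference was -3.13 without those 9 arrays, from 1 array in each group. Leaving out 1 array gave -2.21 to -1.55 in WT males, missing the threshold without sham WT male 1 or 3 or castrated WT male 1 or 3, and -2.64 to -1.90 in null males, missing it without castrated null male 3 (adjusted p = 0.0541), so 0 to 1 members were called in both. Slide as a block called 2 members after castration in null males. Between sham null females and males 1 member, Aldh1a7, was called with the deposited table (-2.17), with probes above background on all 24 arrays, with 1 probe per gene, with slide as a block (-2.25 each), with RNA integrity as a covariate (-2.29) and without the fourth slide; leaving out 1 array called 0 to 1 members there and between null and WT sham females. Of 1944 recomputed member values not called at first, 135 changed sign without being a call and 9 became calls. The described testosterone difference of Rarres1 was 0.84 in WT and 1.68 in null females with normexp background correction. Of the called listed genes, none reversed; without the 9 arrays the calls of Adh7 (2.68 after castration and 2.40 by sex in WT mice), Rxra (0.77), Aldh1b1 (-1.86), Aldh2 (0.86) and, in null mice, Aldh3b1 (1.30 after castration, -1.27 after testosterone, 1.62 by sex) were lost. None of the 9 was a WT male or a null female. The Adh7 value after castration and the Aldh3b1 value after testosterone therefore could not change. Without the 2 liver arrays the calls of Rxra (0.88) and of Aldh3b1 in null mice after testosterone (-1.23, limma, adjusted p = 0.0945) and castration (0.99, adjusted p = 0.0560) were lost. Neither liver array was a null male, so the castration value could not change. With no filter on dim probes the values of Rxra, Aldh1b1 and the same Aldh3b1 comparisons stayed as they were and their calls were lost; Aldh1l2 also lost its call with quantile normalization (1.53). The number of all probes called moved more: 10 to 626 after castration in null males, 88 to 374 in WT males, 19 to 153 after testosterone in null females, 5 to 160 in WT females, 21 to 436 and 5 to 39 by genotype in castrated and sham males, 6 to 67 and 65 to 344 by genotype in testosterone-treated and sham females, 22 to 619 and 351 to 1609 by sex in null and WT mice, and 19 to 51 and 2 to 56 for the testosterone and castration responses by genotype. Leaving out the 9 arrays gave no value for testosterone in WT females, for genotype in females given testosterone or for the testosterone response, since no WT female given testosterone was left. The main fit did not pair arrays by replicate number, since deviations of same-numbered arrays correlated unevenly, between -0.37 and 0.68. Their average was 0.22, against -0.11 for different-numbered arrays, and centring within groups of 3 ties these averages to each other. The number is also the slide on all arrays but those of the fourth slide. Slide as a block raised the probes called from 348 to 626 after castration in null males and from 747 to 1609 by sex in WT mice. The main fit thus leaves out a block that changed these counts. A replicate block left Rarres1 at -1.95 (limma, adjusted p = 0.0384) in WT and -2.26 (adjusted p = 0.0101) in null males, with the count of members called unchanged in all 12 comparisons. The cause of these changes was not tested.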
